A study of Mus musculus with 12 samples.

Results

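The genes described here encode 8 factors that stressed cells release or that follow stress in the endoplasmic reticulum: *Gdf15*, *Fgf21*, *Adm2*, *Vegfa*, *Manf*, *Cdnf*, *Creld1* and *Creld2*. They were found by their symbols among the 55536 genes of the deposited tables, and each symbol matched 1 row. The members were chosen by their levels in the affected and unaffected mice of this series. Their differences between the groups, and whether they passed a threshold, are therefore given only as a description and not as a test.

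RNA was sequenced from the thyroids of 12 C57BL/6N mice, with 1 library per mouse. The 5 affected mice came from Taconic (B6NTac, library suffix TCW) and had thyroid dysplasia, which the study traced to a LINE-1 element inserted in an intron of the thyroglobulin gene *Tg*. The 7 unaffected mice were 6 B6NCrl mice from Charles River (CRW) and 1 unaffected mouse of a mutant strain from Taconic (TCK, replicate 14), whose mutated gene is not named. The labels give no age, sex, treatment or insertion genotype for single mice. Apart from replicate 14, every affected mouse came from 1 breeder and every unaffected mouse from the other, so phenotype and colony cannot be told apart. Each library came from a different mouse, so the spread between libraries holds both biological and technical variation.

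As background, a cell whose endoplasmic reticulum fills with misfolded protein activates 3 sensors, PERK, IRE1 and ATF6. PERK raises translation of the transcription factor ATF4, which also answers to other kinds of stress, and ATF6 and XBP1 switch on chaperone genes of the endoplasmic reticulum. Some of the target genes encode secreted proteins. GDF15, a distant TGF-beta family member, acts on the brain stem through the receptor GFRAL and its partner RET. FGF21 is a metabolic hormone that needs the coreceptor beta-Klotho. ADM2 (intermedin) is a peptide of the calcitonin family that signals through CALCRL and a RAMP protein. VEGFA is the main growth factor of blood vessels and is also responsive to hypoxia. MANF and its paralogue CDNF are small proteins that reside in the endoplasmic reticulum and are released under stress. CRELD2 is a soluble chaperone-like protein of the endoplasmic reticulum, and its paralogue CRELD1 is anchored in the membrane. Thyroid follicular cells make large amounts of the secreted glycoprotein thyroglobulin and so depend on this machinery.

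The promoters of the related genes *Creld2* and *Creld1* and of *Gdf15* are shown because *Creld2* and *Gdf15* had the largest differences of all members while *Creld1* had a small one. RefSeq's promoter windows for GRCm38.p6, running from 250 bases before the transcription start to 50 after it, held 9 windows for 7 of the 8 members. *Manf* had no entry. Capitals mark matches, on either strand, to the stress response, C/EBP-ATF and hypoxia elements spelled out after the sequences.

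*Creld2* (chr15:88819396-88819695, plus strand): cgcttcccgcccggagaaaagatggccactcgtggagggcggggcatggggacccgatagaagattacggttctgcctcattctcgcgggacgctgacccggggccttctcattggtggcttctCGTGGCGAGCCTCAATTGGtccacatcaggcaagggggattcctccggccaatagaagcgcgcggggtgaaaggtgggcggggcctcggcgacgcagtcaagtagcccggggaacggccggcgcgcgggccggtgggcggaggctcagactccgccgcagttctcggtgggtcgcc

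*Creld1* (chr6:113483106-113483405, plus strand): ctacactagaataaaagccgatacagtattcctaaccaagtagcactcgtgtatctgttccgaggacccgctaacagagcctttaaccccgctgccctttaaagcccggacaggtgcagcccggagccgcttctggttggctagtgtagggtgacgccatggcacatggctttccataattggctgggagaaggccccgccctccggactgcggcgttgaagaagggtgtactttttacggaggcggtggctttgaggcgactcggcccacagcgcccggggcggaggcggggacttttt

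*Gdf15*, downstream start (chr8:70632046-70632345, minus strand): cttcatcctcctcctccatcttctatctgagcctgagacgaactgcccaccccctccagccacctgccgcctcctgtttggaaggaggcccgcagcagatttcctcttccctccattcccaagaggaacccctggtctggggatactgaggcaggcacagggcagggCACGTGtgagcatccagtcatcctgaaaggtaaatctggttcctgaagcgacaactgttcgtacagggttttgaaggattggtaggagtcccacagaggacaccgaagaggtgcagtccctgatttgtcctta

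*Gdf15*, upstream start (chr8:70632407-70632706, minus strand): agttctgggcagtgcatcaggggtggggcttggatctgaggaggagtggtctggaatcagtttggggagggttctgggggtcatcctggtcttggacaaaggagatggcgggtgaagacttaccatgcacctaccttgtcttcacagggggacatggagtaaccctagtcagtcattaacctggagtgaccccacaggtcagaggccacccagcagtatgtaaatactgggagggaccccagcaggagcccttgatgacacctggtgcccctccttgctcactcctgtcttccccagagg

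In *Creld2*, the capitals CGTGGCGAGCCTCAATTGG at positions -126 to -108 from the start are an endoplasmic reticulum stress response element read on the opposite strand. The element is CCAAT, 9 free bases and CCACG, and 39 of all 32851 promoter windows (0.119%) hold it. The *Creld1* window held none of these elements, and its single match was to the CCAAT box, which 37.4% of all windows hold. The shorter element with ATTGG, 1 free base and CCACG was in no window of the members and in 0.0365% of all windows. The downstream *Gdf15* window held ACGTG and its reverse complement CACGT as 1 palindrome, and the upstream window held no match to any searched motif. ACGTG, the core of hypoxia response elements, was in 19.6% of all windows and also in those of *Fgf21* and an internal start of *Vegfa*. The C/EBP-ATF element TGATGNAA, at which ATF4 can bind, was in 3.97% of all windows and in those of *Fgf21* (TTGCATCA at positions -139 to -132, read on the opposite strand) and *Cdnf* (TTTCATCA at positions -202 to -195, likewise). TGACGTGG, the unfolded protein response element, which contains ACGTG, was in 0.676% of windows and in the same internal *Vegfa* window. A match is a description of letters, and binding was not measured.

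Libraries held between 11434901 counts (unaffected replicate 14) and 23319948 counts. The 10 thyroid follicular cell markers summed to between 101119 and 256410 CPM in affected mice and between 210858 and 304508 CPM in unaffected mice (CPM, counts scaled to a common library size with edgeR's TMM correction), and all 10 were detected in both groups. *Tg*, the gene of the insertion, is among these 10 markers, so their sum does not measure follicular cells apart from *Tg*. Several libraries carried markers of neighbouring tissue. The 6 skeletal muscle markers ranged from 8.74 to 20620 CPM and were highest in affected replicate 6 and unaffected replicates 22 and 25. The 6 T cell markers reached 271 CPM in unaffected replicate 14 and 266 CPM in unaffected replicate 21, against at most 43.9 CPM in other mice. Affected replicate 4 had 29.4 CPM of the 3 parathyroid markers, against at least 1803 CPM in all others. Affected replicate 1 had 68.7 CPM of the 4 B cell markers, against at most 8.24 CPM in other mice. It also had the highest sums of the brown fat (947 CPM) and white fat (464 CPM) markers. In whole tissue, fewer cells of a type and less RNA per cell cannot be told apart.

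Of the 8 members, 7 passed the filter on low counts and 1, *Fgf21*, did not. In edgeR's quasi-likelihood fit over 19661 genes, 5 of these 7 were past the adjusted threshold of 0.05, all higher in affected mice, and *Vegfa* and *Cdnf* were not. Over all genes tested, 13.7% were called, 7.63% higher and 6.1% lower. For 4 members (*Gdf15*, *Manf*, *Creld1* and *Creld2*) the lowest affected mouse exceeded the highest unaffected one, which was true of 3.78% of all genes tested. Nothing is read from these counts, because the same contrast chose the members. Under library totals without *Tg*, the split of all calls was 604 higher and 1709 lower, against 1500 higher and 1199 lower.

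**Figure D1:**
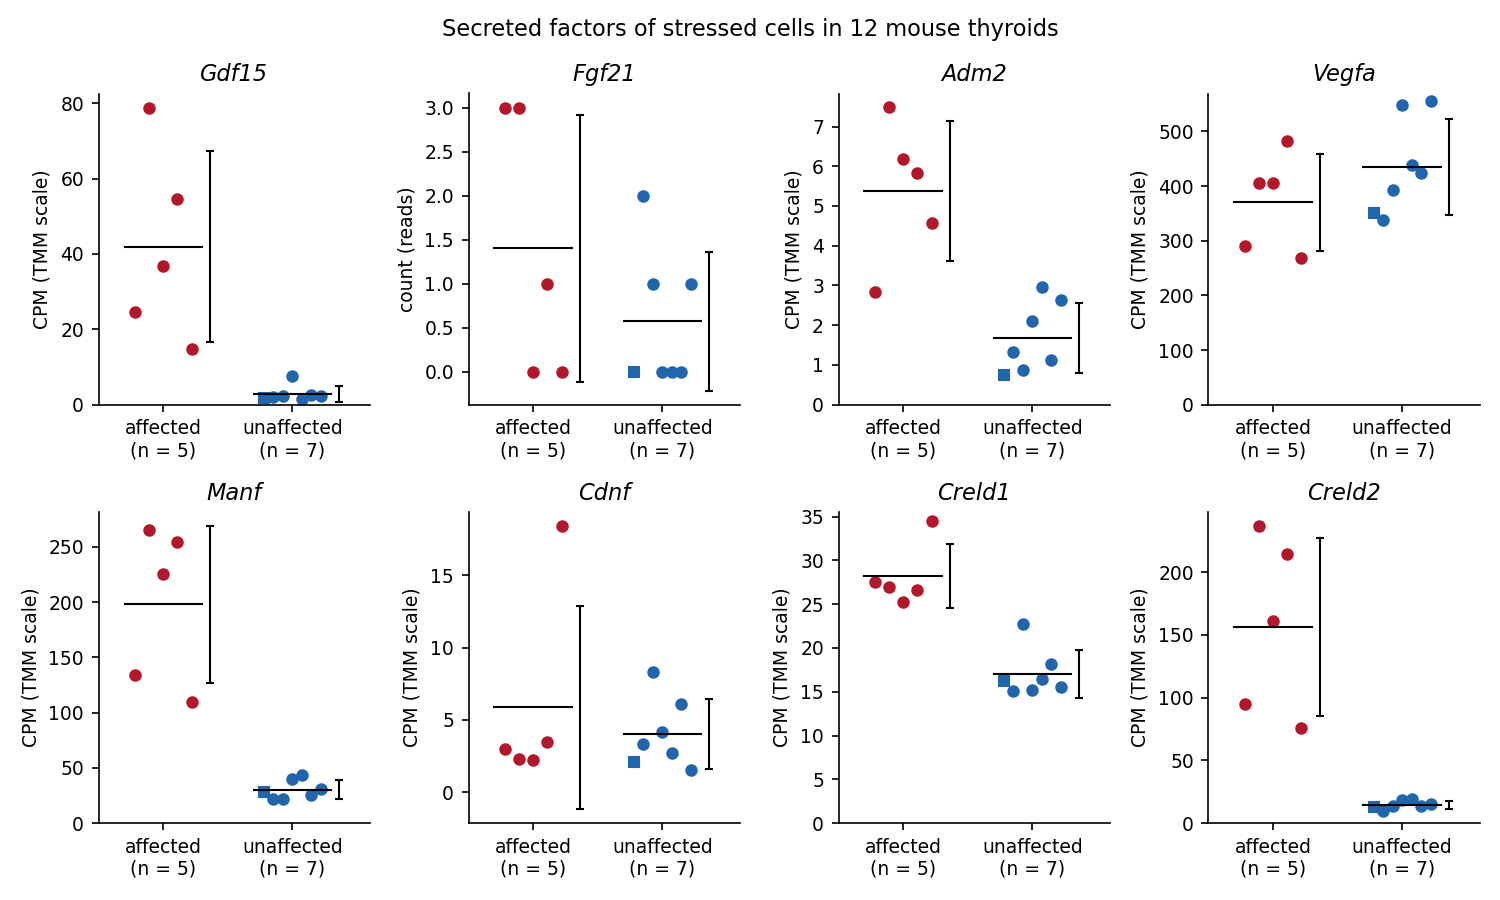
Level of each member in each mouse, as CPM on the TMM scale or, for *Fgf21*, as the count. Circles are mice, the square is unaffected replicate 14 from Taconic, horizontal lines are means and bars are SDs (n = 5 affected and n = 7 unaffected). The groups do not overlap for *Gdf15*, *Manf*, *Creld1* and *Creld2*, and *Fgf21* had at most 3 counts in any mouse.

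*Gdf15* (ENSMUSG00000038508, chromosome 8, minus strand, 70629393 to 70632456, GRCm38) had the largest fold change of the members. In affected replicates 1, 3, 4, 5 and 6 it had 24.7, 78.7, 36.8, 54.6 and 14.7 CPM. The unaffected mice had a lowest value of 1.53, a median of 2.31 and a highest value of 7.56 CPM, the last in replicate 23. The means were 41.9 ± 25.4 CPM (SD, n = 5) and 2.87 ± 2.10 CPM (SD, n = 7). That was 14.5-fold, or 3.86 ± 0.49 (standard error) on the log2 scale. The groups did not overlap, and the affected mice themselves spanned a wide range, with replicates 6 and 1 lowest and replicate 3 highest.

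*Fgf21* (ENSMUSG00000030827, chromosome 7, minus strand, 45613886 to 45615490), a hormone best known from liver, was at the limit of detection. Its counts in affected replicates 1, 3, 4, 5 and 6 were 3, 3, 0, 1 and 0, and in unaffected mice they had a lowest value and a median of 0 and a highest value of 2. The 12 libraries held 7 counts in affected and 4 in unaffected mice. No fold change is given, since no library rose above 3 counts, and a difference was not detectable at this depth.

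*Adm2* (ENSMUSG00000054136, chromosome 15, plus strand, 89322720 to 89324731) was a low-level gene that was higher in affected mice with some overlap. It had 2.84, 7.49, 6.19, 5.82 and 4.57 CPM in affected replicates 1, 3, 4, 5 and 6. The unaffected mice had a lowest value of 0.75, a median of 1.32 and a highest value of 2.96 CPM, so that affected replicate 1 lay just below the highest unaffected mouse and 4 of the 5 affected mice lay above it. The log2 fold change was 1.67 ± 0.35 (standard error), or 3.17-fold. The counts behind the lowest values were small, with 9 in unaffected replicate 14 and 65 in affected replicate 1.

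*Vegfa* (ENSMUSG00000023951, chromosome 17, minus strand, 46016993 to 46032369) was the most abundant member in unaffected thyroids and did not pass the threshold. Affected replicates 1, 3, 4, 5 and 6 had 289.9, 405, 406, 482 and 268 CPM. Unaffected mice had a lowest value of 337, a median of 424 and a highest value of 555 CPM, and the groups overlapped widely. The log2 fold change was -0.23 ± 0.17 (standard error), with a 95% interval of -0.60 to 0.14. Affected replicates 1 and 6, which had the lowest *Vegfa*, also had the lowest thyroid marker sums (*Tg* included), 101119 and 119688 CPM. The part of tissue makeup in this was not tested.

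*Manf* (ENSMUSG00000032575, chromosome 9, minus strand, 106838312 to 106891979) was high in every affected mouse. It had 134, 265, 226, 255 and 109.7 CPM in affected replicates 1, 3, 4, 5 and 6. Unaffected mice had a lowest value of 21.7, a median of 28.5 and a highest value of 43.9 CPM, and the lowest affected mouse was above the highest unaffected one. The means were 198 ± 71.3 CPM (SD, n = 5) and 30.5 ± 8.64 CPM (SD, n = 7). The ratio was 6.50-fold, or 2.70 ± 0.26 (standard error) on the log2 scale. Exons of *Manf* overlap those of *Rbm15b* on the same strand and of *Dcaf1* and another gene on the opposite strand, so part of its count is uncertain.

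*Cdnf* (ENSMUSG00000039496, chromosome 2, plus strand, 3513030 to 3526376), the paralogue of *Manf*, showed no such separation. Affected replicates 1, 3, 4, 5 and 6 had 2.97, 2.30, 2.22, 3.45 and 18.4 CPM, and unaffected mice had a lowest value of 1.54, a median of 3.32 and a highest value of 8.30 CPM. Apart from replicate 6, every affected mouse lay within the unaffected range. The log2 fold change was 0.53 ± 0.60 (standard error), with a 95% interval of -0.79 to 1.84. The log2 fold change turned to -0.56 when affected replicate 6 was left out, and to -0.0067 when the 3 mice highest in skeletal muscle markers were.

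*Cdnf* was highest in the mice with the most skeletal muscle marker RNA. The 3 mice with the most *Cdnf*, affected replicate 6 (18.4 CPM), unaffected replicate 22 (8.30 CPM) and unaffected replicate 25 (6.11 CPM), were also the 3 with the most muscle marker RNA, at 20620, 9718 and 6908 CPM. The lowest mouse for both was unaffected replicate 26, with 1.54 CPM of *Cdnf* and 8.74 CPM of the markers. The markers were *Acta1*, *Ckm*, *Myh4*, *Myl1*, *Tnnt3* and *Mb*, and none of the 6 was called between the groups. How much of the *Cdnf* count came from muscle was not tested.

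**Figure D2:**
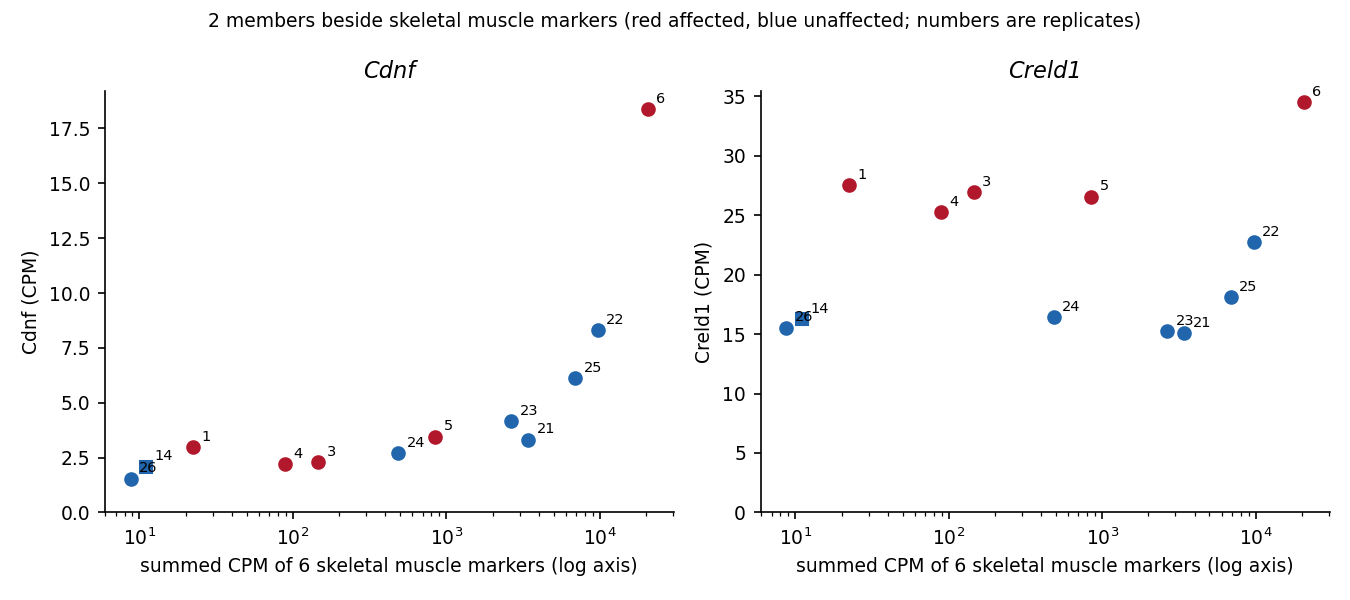
*Cdnf* (left) and *Creld1* (right) in CPM against the summed CPM of 6 skeletal muscle markers on a log axis, with 1 point per mouse labelled by replicate (red affected, blue unaffected, square the Taconic control). *Cdnf* is highest in the 3 mice with the most marker RNA, from both groups, while the 5 affected mice lie above all 7 unaffected mice for *Creld1* along the whole range of the markers.

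*Creld1* (ENSMUSG00000030284, chromosome 6, plus strand, 113483297 to 113493343) had a small difference with little spread. It had 27.6, 26.9, 25.3, 26.6 and 34.5 CPM in affected replicates 1, 3, 4, 5 and 6. Unaffected mice had a lowest value of 15.1, a median of 16.2 and a highest value of 22.7 CPM. The groups did not overlap, and the highest mouse of each group, affected replicate 6 and unaffected replicate 22, was also the highest of its group in muscle markers. The log2 fold change was 0.72 ± 0.11 (standard error), or 1.65-fold, and was 0.77 without the 3 mice highest in muscle markers.

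*Creld2* (ENSMUSG00000023272, chromosome 15, plus strand, 88819646 to 88826683) differed far more than its paralogue. Affected replicates 1, 3, 4, 5 and 6 had 95.0, 237, 161, 215 and 75.9 CPM. Unaffected mice had a lowest value of 10.1, a median of 13.5 and a highest value of 19.4 CPM, so the lowest affected mouse was well above the highest unaffected mouse. The means were 157 ± 70.9 CPM (SD, n = 5) and 14.7 ± 3.34 CPM (SD, n = 7). The ratio was 10.7-fold, or 3.41 ± 0.29 (standard error) on the log2 scale.

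The order of the affected mice recurred across members. Replicates 6 and 1 were the 2 lowest of the 5 for *Gdf15*, *Manf*, *Creld2*, *Vegfa* and *Adm2*, although for *Adm2* replicate 1 was the lower, and replicate 3 was the highest for all of these except *Vegfa*. For *Creld1* the order was different, with replicates 6 and 1 highest. These 2 mice also had the lowest thyroid marker sums of the affected mice, 119688 CPM in replicate 6 and 101119 CPM in replicate 1. The other affected mice had at least 183903 CPM, and *Tg* itself is among these markers. Replicate 6 had the most muscle marker RNA (20620 CPM), and replicate 1 the most B cell, brown fat and white fat marker RNA (68.7, 947 and 464 CPM). The part of tissue makeup in this order was not tested. The unaffected mouse from Taconic, replicate 14, lay within the range of the 6 B6NCrl mice for 7 members and below it for *Adm2* (0.750 CPM against at least 0.876 CPM). For *Gdf15*, *Manf*, *Creld1* and *Creld2* it lay below all affected mice.

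**Figure D3:**
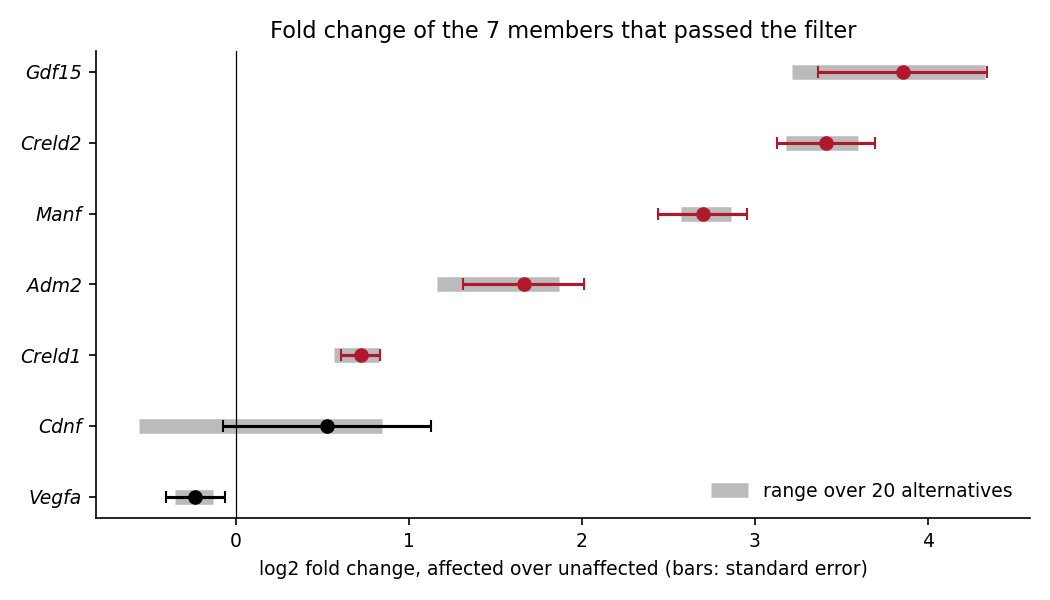
Log2 fold change of affected over unaffected mice for the 7 members that passed the filter. Points with bars are the values with standard errors (red where past the threshold), and grey bands span the values over 20 distinct alternative settings or left-out mice. The band of *Cdnf* crosses 0, and the bands of the 5 called members stay above 0.

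Levels can be compared between genes only per transcript length, for which the deposited FPKM values were used. The order of levels between genes was not used to choose the members, and neighbours in that order were compared within mice by an exact two-sided sign-flip permutation test on log2(FPKM + 0.1). In the 7 unaffected mice *Vegfa* came first at a median of 167 FPKM, followed by *Manf* at 35.5 FPKM and then by *Creld2* at 9.73 FPKM and *Creld1* at 8.89 FPKM. *Gdf15* had a median of 1.53 FPKM, *Cdnf* of 1.16 FPKM and *Adm2* of 1.07 FPKM. *Fgf21* came last, with a highest value of 0.108 FPKM.

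Of the 7 neighbouring pairs, 4 differed in the same direction in 7 of 7 mice, with an exact permutation p of 0.0156, the smallest that 7 mice can give, and an adjusted p of 0.0273 over the 7 pairs. These were *Vegfa* over *Manf* (a mean difference of 2.31 on the log2 scale), *Manf* over *Creld2* (1.70), *Creld1* over *Gdf15* (2.32) and *Adm2* over *Fgf21*. *Fgf21* was listed at 0 FPKM in 4 of the 7 mice, so the size of the last difference is set by the 0.1 added, and nothing is read from it. *Creld2* and *Creld1* were not told apart (0.22 ± 0.40, SD, n = 7, exact permutation p = 0.219, higher in 4 of 7 mice). Neither were *Gdf15* and *Cdnf* (0.52 ± 0.92, exact permutation p = 0.203) or *Cdnf* and *Adm2* (0.01 ± 1.27, exact permutation p = 0.984). With only the 6 B6NCrl mice, or without any 1 unaffected mouse, no pair passed after adjustment, as 4 pairs had an exact permutation p of 0.0312, the smallest that 6 mice can give, and an adjusted p of 0.0547. The order of *Manf* and *Creld2* turned with the length used. For *Creld2* the annotated exon length and the length implied by count and FPKM were both 1366 bp. For *Manf* they were 3524 bp and 818 to 896 bp, and for *Creld1* 4251 bp and 1765 to 2081 bp. Per kilobase of annotated exon length, in place of the deposited FPKM, *Creld2* lay above *Manf* in 7 of 7 unaffected mice (a mean log2 difference of 0.33, exact permutation p = 0.0156, adjusted p = 0.0273), and 5 pairs passed. *Creld2* and *Creld1*, not told apart on FPKM, did not overlap on this scale, at 7.37 to 14.2 and 3.55 to 5.35 CPM per kilobase in unaffected mice.

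Ratios within a mouse describe the same levels in affected thyroids. The ratio of *Creld2* to *Creld1* FPKM ran from 0.841 to 1.74 in unaffected mice and from 3.33 to 12.4 in affected mice. *Manf* stood at 0.159 to 0.303 of the *Vegfa* level in unaffected mice and at 1.20 to 1.91 times that level in affected mice, where it had the highest FPKM of the members in all 5. This rank held on FPKM only, where the length used for *Manf* was far shorter than its annotated exon length. Per kilobase of annotated exon length *Manf* was highest in 0 of the 5 affected mice, *Creld2* in 4 and *Vegfa* in 1, with affected medians of 64.0 CPM per kilobase for *Manf*, 94.5 for *Vegfa* and 118 for *Creld2*. *Gdf15* ranked above *Creld1* in the mean order of the affected mice and below it in that of the unaffected mice.

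**Figure D4:**
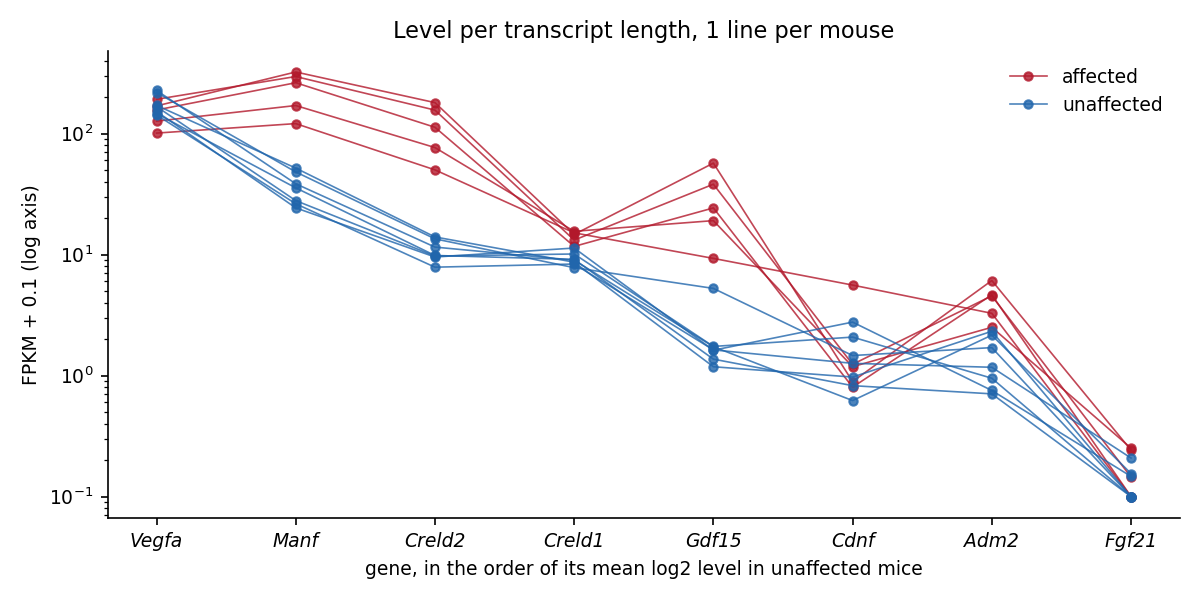
FPKM of the members plus 0.1 on a log axis, with 1 line per mouse (red affected, blue unaffected), in the order of mean level in unaffected mice. *Vegfa* is the highest point of every blue line, and in every red line *Manf* lies above *Vegfa* on the FPKM scale.

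Whether the mix of annotated transcripts changed was read from the implied transcript length, which follows from the ratio of a gene's count to its FPKM at the library's total. As a check, it was set against the annotated exon length of 3690 genes that have a single transcript and 10 or more counts per mouse, and the ratios ran from 0.999 to 1.001. Of the members with several transcripts, 5 had at least 10 counts in every mouse. Group means were compared by exact permutation (two-sided, all 792 ways to split the mice).

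The implied length of *Creld1* was 2011 ± 67.9 bp (SD) over the 5 affected mice and 1878 ± 78.2 bp (SD) over the 7 unaffected mice. The difference of 133 bp had an exact permutation p of 0.0164, which did not pass after adjustment over the 12928 genes with several transcripts (adjusted p = 0.316). An unadjusted exact permutation p under 0.05 was found for 11.2% of those genes. The ranges overlapped, with 1925 to 2081 bp in affected and 1765 to 1961 bp in unaffected mice. The annotation lists a coding transcript of 2306 bp for *Creld1* and 5 shorter transcripts with retained introns, from 643 to 1609 bp.

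The other 4 did not pass. *Gdf15* had implied lengths of 1380 to 1518 bp over all mice, between its transcripts of 1380 and 1545 bp (exact permutation p = 0.583). *Vegfa*, with 13 transcripts, had 2398 to 2522 bp (exact permutation p = 0.448). *Manf* had 818 to 896 bp (exact permutation p = 0.509), within the 357 to 2247 bp of its annotated coding transcripts. *Cdnf* stayed at 3013 bp, the length of its coding transcript, in all 12 mice (exact permutation p = 0.740).

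The receptors and binding partners of these factors numbered 19 genes, of which 17 passed the filter. In affected mice 2 were higher and 3 lower, with a median log2 fold change of 0.04 against 0.01 over all genes tested. *Gfral*, the receptor of GDF15, did not pass the filter, with at most 0.195 CPM in any mouse, and its signalling partner *Ret*, which thyroid C cells also express, fell (log2 fold change -0.80 ± 0.23, standard error, adjusted p = 0.0377 by edgeR). The 4 C cell markers, *Ret* among them, summed to between 1037 and 5584 CPM in affected and between 2374 and 5189 CPM in unaffected mice. *Calca* was at most 997 CPM, *Ret* 43.9 CPM and *Calcb* 0.440 CPM, so most of the higher sums was *Chga*. Among affected mice replicate 6 had the highest and replicate 4 the lowest sum, as for the parathyroid markers (4309 and 29.4 CPM). The sum therefore does not measure C cells alone. *Calca* ran from 369 to 992 CPM in affected and from 537 to 997 CPM in unaffected mice. Of the FGF21 receptors, *Fgfr2* was lower (-0.72 ± 0.13, adjusted p = 0.00325), at 92.5 to 143 CPM in affected and 184 to 247 CPM in unaffected mice, without overlap. Exons of *Fgfr2* overlap *Ctbp2* on the same strand. The coreceptor *Klb* (0.95 ± 0.37), *Fgfr1* (0.17 ± 0.20) and *Fgfr3* (0.25 ± 0.32) did not pass the threshold, and *Fgfr4* was under the filter.

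For VEGFA, *Kdr*, its main signalling receptor on endothelium, was lower (-0.60 ± 0.18, adjusted p = 0.0413), while *Flt1* (-0.05 ± 0.14), *Nrp1* (-0.33 ± 0.14) and *Nrp2* (0.16 ± 0.09) did not pass. None of the 6 endothelial markers was called, and their sum ran from 372 to 525 CPM in affected and from 352 to 476 CPM in unaffected mice. The calls of *Ret* and *Kdr* were weak, and each was lost in 11 of 20 distinct alternatives. For both genes these included no filter on low counts and leaving out the 3 mice highest in muscle markers. *Ret* was lost when affected replicate 1, 3, 5 or 6 or unaffected replicate 22, 23, 24, 25 or 26 was left out, and *Kdr* when affected replicate 1, 3, 5 or 6 or unaffected replicate 14, 22, 23, 24 or 26 was left out, and the count of receptors called fell from 5 to 3 without affected replicate 1, 3 or 5 or unaffected replicate 22, 24 or 26.

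The ADM2 receptor *Calcrl* (-0.16 ± 0.16) and its partners *Ramp1* (0.04 ± 0.74), *Ramp2* (0.36 ± 0.18) and *Ramp3* (-0.43 ± 0.26) did not pass. *Nptn*, neuroplastin, a binding partner of MANF, had a log2 fold change of 0.0026 ± 0.05 and did not pass. The KDEL receptors return proteins from the Golgi apparatus to the endoplasmic reticulum and so retain MANF-like proteins in the cell. *Kdelr2* (0.65 ± 0.12, adjusted p = 0.00347) and *Kdelr1* (0.43 ± 0.09, adjusted p = 0.00747) rose without overlap of the groups, although the call of *Kdelr1* was lost under library totals without *Tg*, and *Kdelr3* (0.57 ± 0.20) did not pass.

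Among 15 related ligands, 12 passed the filter, 1 was higher and 1 lower, with a median log2 fold change of 0.10. *Pgf*, placental growth factor and a ligand of FLT1, was lower, at 3.06 to 9.69 CPM in affected and 10.7 to 19.8 CPM in unaffected mice (log2 fold change -1.39 ± 0.29, adjusted p = 0.00817). It was no longer called without the 3 mice highest in muscle markers. *Tgfb3* was higher (0.46 ± 0.09, adjusted p = 0.00761). The paralogues *Vegfb* (-0.03 ± 0.14), *Vegfc* (-0.15 ± 0.12) and *Adm* (0.19 ± 0.21) did not pass, and *Fgf23*, a hormone of the same subfamily as *Fgf21*, had no count in any mouse.

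Of 12 other secreted stress factors, 9 passed the filter, 5 were higher and none was lower, with a median log2 fold change of 0.62. *Lif*, a cytokine of the interleukin-6 family, had the largest change (2.10 ± 0.34, adjusted p = 0.00176) at low levels, 1.65 to 4.25 CPM against 0.211 to 0.926 CPM. The calcium-binding proteins *Nucb2* (1.71 ± 0.22, adjusted p = 5.17e-04) and *Nucb1* (1.08 ± 0.16, adjusted p = 0.0013) were higher without overlap. *Metrnl* (0.62 ± 0.16, adjusted p = 0.0258) was called, but not when affected replicate 1 or 3 or unaffected replicate 26 was left out. Its call was also lost under library totals without *Tg* and without the 3 mice highest in muscle markers. *Il6*, *Igfbp1* and *Inhbe* were under the filter.

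Of 13 regulators known to control members, 5 were higher and 1 lower. *Atf3* (3.50 ± 0.48, adjusted p = 8.76e-04), *Ddit3*, which encodes CHOP (2.61 ± 0.28, adjusted p = 1.70e-04), *Atf4* (0.84 ± 0.12, adjusted p = 7.99e-04) and *Atf6* (0.71 ± 0.10, adjusted p = 5.83e-04) rose, each without overlap of the groups. Exons of *Ddit3* overlap another annotated entry of the same symbol on the same strand, and *Gm4189* and *Mars* on the opposite strand, so part of its count is uncertain. *Hif1a*, the oxygen-regulated factor, was lower (-0.79 ± 0.16, adjusted p = 0.00735), and its exons overlap an annotated transcript on each strand. *Egr1* (1.47 ± 0.45) was just past the threshold (adjusted p = 0.0498), with 296 CPM in affected replicate 4 as its highest value, and lost its call in 18 of 20 distinct alternatives, which included leaving out any mouse other than affected replicate 1.

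The regulators that did not pass were *Atf6b* (0.30 ± 0.12), *Xbp1* (0.27 ± 0.12), *Creb3l2* (-0.17 ± 0.14), *Nfe2l2* (0.15 ± 0.14), *Trp53* (-0.07 ± 0.10), *Epas1* (0.18 ± 0.09) and *Arnt* (-0.02 ± 0.10). XBP1 is activated by splicing of its messenger RNA, and ATF4 by translation, so the messenger level of either gene does not measure its activity.

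Target genes of 4 of these pathways were counted beside the members. All 11 ATF6 target genes tested were higher, each without overlap of the groups, with a median log2 fold change of 2.37. XBP1 also switches on chaperone genes of the endoplasmic reticulum, no list of its targets was counted, and which factor acted was not tested. The largest were *Sdf2l1* (3.76 ± 0.40), *Pdia4* (3.00 ± 0.25), the chaperone *Hspa5* (2.88 ± 0.28) and *Hsp90b1* (2.63 ± 0.24). Exons of *Pdia4* and *Hsp90b1* overlap small annotated genes on the same strand.

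Of 14 ATF4 target genes, 7 were higher and none lower, with a median of 0.89. They included *Trib3* (2.57 ± 0.27), *Mthfd2* (2.30 ± 0.19), *Asns*, the asparagine synthetase (1.74 ± 0.13), and *Phgdh* (0.90 ± 0.15). *Nupr1* (1.16 ± 0.84) did not pass, and its highest value of all mice, 235 CPM, was in unaffected replicate 23, the unaffected mouse with the most *Gdf15*. Without that mouse *Nupr1* was called.

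Of 10 p53 target genes, 5 were higher and none lower, with a median of 0.54. The largest was *Cdkn1a*, a cell cycle inhibitor (2.05 ± 0.18), followed by *Ccng1* (1.01 ± 0.23), *Bax* (0.58 ± 0.12) and *Zmat3* (0.50 ± 0.12). The call of *Zmat3* was lost in 6 of 20 distinct alternatives. These were leaving out affected replicate 3 or 5 or the 2 mice highest in T cell markers, library totals without *Tg*, and both limma fits on FPKM. Exons of *Bax* overlap another gene on the same strand, and those of *Cdkn1a* and *Tgfb3* overlap genes on the opposite strand. Under library totals without *Tg*, which moved the median of all genes by -0.13, only 2 of these genes were higher and 1 was lower.

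Of 12 hypoxia genes, 2 were higher, *Ero1l* (0.96 ± 0.17), which encodes an oxidase of the endoplasmic reticulum, and *P4ha1* (0.58 ± 0.08), a collagen prolyl hydroxylase. The other 10, among them *Car9* (0.29 ± 0.42), *Slc2a1* (0.12 ± 0.11) and *Pdk1* (-0.14 ± 0.12), did not pass, and the median was 0.20. These lists were assembled with earlier results of these mice known, and their counts stand beside the 7.63% and 6.1% of all genes that were called higher and lower.

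**Figure D5:**
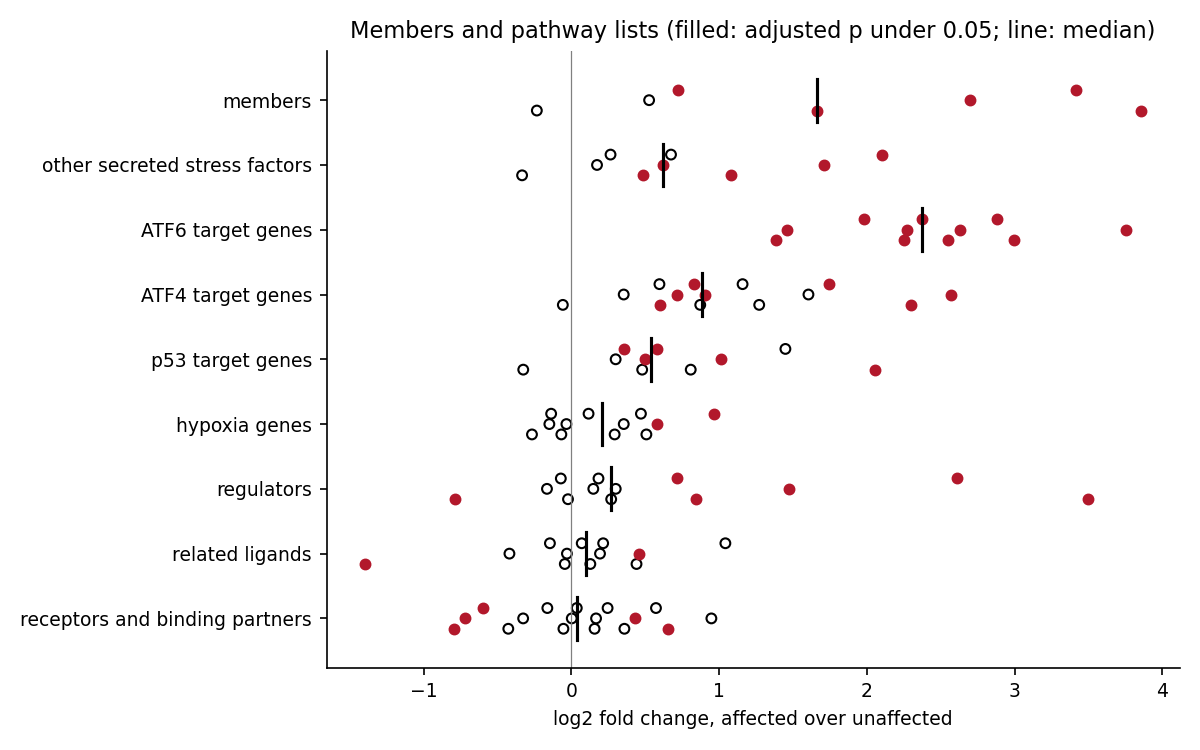
Log2 fold change of affected over unaffected mice for the members and 8 lists of related genes, with 1 point per gene that passed the filter (filled where the adjusted p was under 0.05) and a line at each list's median. All 11 ATF6 target genes are filled and above 1, while 10 of 12 hypoxia genes are open and lie between -0.27 and 0.51.

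The genes nearest to each member in their pattern over the 12 mice were found by the root mean square difference of mean-centred log2 CPM, among 15522 genes with an average log2 CPM of at least 1. *Manf* was nearest to *Hyou1* (0.119) and *Hspa5* (0.164), and *Creld2* to *Pdia4* (0.260) and *Hspa5* (0.292). *Gdf15* was nearest to *Atf3* (0.450) and *Cpa4* (0.475), and *Adm2* to *Moxd1* (0.408) and *Gm17767* (0.418). *Creld1* was nearest to *Mettl7a1* (0.110) and *Gsn* (0.129), *Vegfa* to *Col13a1* (0.0981) and *Rbm47* (0.121), and *Cdnf* to *4930429F24Rik* (0.192) and *Ybx3* (0.247). The measure favours genes with small differences for members with small differences and is a description over mice that share their groups.

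Some cell type markers moved with the groups. Of the 7 macrophage markers, 3 were higher in affected mice, and their sum ran from 152 to 243 CPM in affected and from 73.4 to 182 CPM in unaffected mice. Of the 5 fibroblast markers 2 were higher, with sums of 639 to 1026 CPM against 445 to 667 CPM. Of the 10 thyroid follicular cell markers *Slc26a4* was higher (3.69 ± 0.65, adjusted p = 0.00301 by edgeR) and *Pax8*, whose exons overlap a gene on the opposite strand, lower (-0.81 ± 0.19, adjusted p = 0.0158). Of the 4 brown fat markers 1, *Elovl3*, was higher, with sums of 27.7 to 947 CPM in affected and 48.8 to 179 CPM in unaffected mice. Of the 4 airway epithelium markers 1, *Scgb3a1*, was higher, with sums of 2.71 to 236 CPM and 0.669 to 43.5 CPM. Of the 4 C cell markers 1, *Ret*, was lower. No marker of T cells, B cells, skeletal muscle, white fat, parathyroid, endothelium or erythrocytes was called. Only 4 of the 6 T cell markers and 1 of the 4 B cell markers passed the filter and were tested. None of the markers of these lists was at 0 in all mice. The part of the markers' cells in the members' levels was not tested. The count of 5 members called was the same without the 3 mice highest in muscle markers and without the 2 mice highest in T cell markers, both alternatives chosen after the data were seen. No support is drawn from that count, because the same contrast chose the members.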

How the data were processed

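Total RNA from mouse thyroids was depleted of ribosomal RNA and sequenced on an Illumina NextSeq. Alignment and gene quantification by the authors used OmicSoft Array Studio with the Ensembl gene models of GRCm38, and they deposited estimated counts per gene, not normalized, and FPKM values. Whether counting used the strand is not given in the sources used here. The members and all gene lists were chosen with earlier results of these data known.

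Estimated counts were rounded, filtered with edgeR's filterByExpr (minimum count 10), scaled by TMM and tested with edgeR 4.0.16's robust quasi-likelihood test (R 4.3.3), affected against unaffected, without covariates. P-values were adjusted by Benjamini-Hochberg over all 19661 genes, with a threshold of 0.05. Standard errors were derived from each gene's log2 fold change and its F statistic. Log2 CPM used a prior count of 2. Between 11434901 and 23319948 counts per mouse set the precision.

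Alternatives were DESeq2 1.42.0, library totals with and without *Tg*, no filter, only B6NCrl controls, limma 3.58.1 for genes averaging 0.5 FPKM or more, on log2(FPKM + 1) and on log2(FPKM + 0.1) (scales that understate changes of low genes), and leaving out each mouse. Leaving out unaffected replicate 14 is the same fit as only B6NCrl controls and was counted once. The order of levels was also computed on log2(FPKM + 1) and on CPM per kilobase of annotated exon length. Fits without the 3 mice highest in muscle markers or the 2 highest in T cell markers, and the adjustment of implied lengths over all genes, were added after seeing the data. Named genes were the members, all receptors and regulators, at most 4 called genes with the largest change of each other list, the 2 nearest genes of each member, and markers. Other genes named, such as those that did not pass, were chosen after their values were seen. Exon overlaps and transcript lengths are from GENCODE M21, and promoters from RefSeq (GRCm38.p6).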

Additional observations from a re-analysis of the deposited data

Results flagged for a closer look

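Members were examined for a mouse standing apart from the rest of its group, by the gap to the nearest mouse over the range of the group (Dixon's 95% limit, 0.71 for 5 mice and 0.568 for 7). Of 24 groups of values examined, 3 passed the limit, and chance alone passes about 1 group in 20. *Gdf15* in unaffected replicate 23 had 2.94 log2 CPM, against 0.71 to 1.37 in the other unaffected mice. *Cdnf* in affected replicate 6 had 4.21 log2 CPM, against 1.21 to 1.83 in the other affected mice. *Creld1* in affected replicate 6 had 5.11 log2 CPM, against 4.66 to 4.79 in the others. Affected replicate 6 also had the most skeletal muscle marker RNA of all mice. Without unaffected replicate 23, the log2 fold change of *Gdf15* was 4.33.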

How the results depend on the processing

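The 5 called members were called under all 20 distinct alternatives, and *Vegfa* and *Cdnf* under none. This is no test of the members, because each alternative refits the contrast that chose them. Over these alternatives the log2 fold change of *Gdf15* ran from 3.22 to 4.33, of *Creld2* from 3.18 to 3.60, of *Manf* from 2.57 to 2.86, of *Adm2* from 1.16 to 1.87, of *Creld1* from 0.57 to 0.83 and of *Vegfa* from -0.35 to -0.13. *Cdnf* turned negative without affected replicate 6 (-0.56) and without the 3 mice highest in muscle markers (-0.0067), within a span of -0.56 to 0.84 when single mice were left out. Without those 3 mice 1689 genes were called instead of 2699 (fewer mice were fitted), 3 receptors instead of 5 and 1 related ligand instead of 2. Leaving out single mice gave from 1774 genes (without affected replicate 5) to 3390 (without affected replicate 4) and from 3 to 6 receptors. Without a filter 3 receptors were called and *Fgf21* was not. Library totals without *Tg* gave 3 p53 target genes instead of 5, 2 higher and 1 lower, with the median of all genes moved by -0.13, and the cause was not tested. With library totals the split of all calls was 1154 higher and 974 lower, and without *Tg* 604 higher and 1709 lower, against 1500 higher and 1199 lower. The number of neighbouring pairs of levels that differed fell from 4 to 0 with only the 6 B6NCrl mice or without any 1 unaffected mouse (smallest adjusted p = 0.0547, exact permutation test). In each of these fits 4 pairs had an exact permutation p of 0.0312, the smallest that 6 mice can give, so the fall follows from the number of mice. The number of pairs was 4 on log2(FPKM + 1) and 5 per kilobase of annotated exon length, where *Manf* fell below *Creld2*. The difference in implied length of *Creld1*, 133 bp, did not pass when adjusted over all genes with several transcripts (adjusted p = 0.316). No paired analysis of the groups was possible, because they hold different mice and the labels match no affected mouse to an unaffected one. For *Fgf21*, with at most 3 counts in a mouse, a difference could not be detected at this depth, and whether more depth would show one was not tested.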
